A study of Mus musculus with 58 samples.

Results

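Morulae whose mothers lacked the Polycomb genes Pcgf1 and Pcgf6 (matKO) were compared with control (CTR) morulae in total gene expression, over all genes on autosomes. Total expression is the sum of the reads assigned to the maternal and to the paternal allele. The comparison uses 2 matKO and 2 CTR libraries, 4 of the 58 samples of the series and of the 14 with a column of RNA counts. The labels give the matKO embryos as a double maternal knockout of Pcgf1 and Pcgf6 and the CTR embryos as wild type. In both groups the mother was B6.129 and the father PWK, so the embryos are hybrids and the matKO embryos inherited a PWK copy of both genes. What drove the deletion in the mother's germ line and how many embryos made up a library is not stated in the labels. Extraembryonic ectoderm (ExE) of the same crosses, with 4 matKO and 2 CTR libraries, and fully grown oocytes (FGO) of B6.129 females, with 2 double knockout (KO) and 2 CTR libraries, serve here as comparison stages. Nothing in the labels says whether the libraries of a group came from separate matings, so p-values measure the spread between libraries, which may be technical.

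PCGF1 and PCGF6 are subunits of variant forms of Polycomb repressive complex 1 (PRC1), which puts ubiquitin on histone H2A and helps to keep developmental and germ-line genes silent. The complex with PCGF6 also contains DNA-binding partners of the MAX, MGA and E2F6 families. An embryo with a maternal knockout starts from an egg made without these proteins and later depends on the copy from the father. The morula is the stage at which the outer cells compact, polarise and start on the trophectoderm, the epithelium that will form the placenta, while the inner cells stay pluripotent. Its energy comes at first from pyruvate and lactate and increasingly from glucose.

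The count table gave 22988 autosomal genes among 24077, and 8770 of them had enough reads to be tested. Libraries held 1299715 and 1347826 reads in matKO and 1685510 and 1587445 reads in CTR, of which 97.5 to 97.7% lay on autosomal genes. A floor of 3 counts per library corresponded to 1.78 to 2.31 CPM, the counts scaled to one fixed total per library. Floors and intervals cover counting error only. No count was found in any of the 4 libraries for 8444 autosomal genes. Reads without a strain variant cannot be assigned to a parent, so a gene listed at 0 may still be expressed: the pluripotency gene Pou5f1 was listed at 0 in all 4 libraries. CPM values are per library and not per gene length, so levels are compared between libraries and not between genes. In a pool of cells, fewer cells of a type and less RNA per cell cannot be told apart.

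Summed over both alleles, the targeted gene Pcgf6 did not separate the groups. Pcgf6 had 215 and 199.6 CPM in matKO morulae, against 198 and 239 CPM in CTR morulae (log2 −0.04, SE 0.14, adjusted p = 0.915), with the copy from the father counted too. By allele, its maternal reads were 130 and 110 in matKO against 210 and 218 in CTR, and its paternal reads 149 and 159 in matKO against 124 and 161 in CTR. Scaled to the allele's total, both matKO libraries lay below both CTR libraries on the maternal allele and above them on the paternal one, so that maternal reads were fewer in matKO but still present. Pcgf1 had 4 and 4 maternal reads in matKO and 0 and 0 in CTR, and 0 and 0 paternal reads in matKO and 1 and 0 in CTR, too few for a check. Its summed reads, 8 in matKO and 1 in CTR, lay higher in matKO (ratio 9.89, 95% exact interval 1.33 to 439). The gene had too few reads to be tested. Embryo markers were present: Gata3, Krt8, Krt18, Tead4 and Tfap2c of the trophectoderm and Nanog and Sall4 of the inner cells had more than the floor in every library. The 6 trophectoderm markers summed to 1143 and 1259.8 CPM in matKO against 1817 and 1652 CPM in CTR, and the inner cell mass markers to 720.2 and 875 CPM in matKO against 660.3 and 909.6 CPM in CTR. Of 10 markers of granulosa and cumulus cells, which surround the oocyte, 8 were at 0 in every library, and all 10 summed to 63.9 and 68.3 CPM in matKO and 94.3 and 85.7 CPM in CTR, nearly all of it Amhr2. Oocyte markers summed to 96.9 and 73.5 CPM in matKO and 56.4 and 70.6 CPM in CTR, most of it Zp3.

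At the threshold used, matKO morulae differed from CTR morulae in 11 autosomal genes, and 4 of them encode enzymes of small-molecule metabolism. Chka, a choline kinase, and Bbx, a chromatin gene with an HMG box, rose. Ugdh, Akr1e1 and Oxct1, enzymes of sugar nucleotide, aldehyde and ketone metabolism, fell. The desmosome gene Dsc2, the early embryo gene Dppa1, the membrane genes Tmem171, Sft2d2 and Cpne8, and the locus D5Ertd605e fell as well. Of the 8770 genes tested with edgeR's quasi-likelihood test, 2 rose (0.0228%) and 9 fell (0.103%) at a Benjamini-Hochberg adjusted p under 0.05, 0.125% in either direction. Another 31 genes had an adjusted p from 0.05 to under 0.06, and 1709 had an unadjusted p under 0.05, 788 of them higher and 921 lower in matKO. DESeq2's Wald test called 78 higher (0.944%) and 113 lower (1.37%) genes of 8264, all 11 among them. The edgeR calls of Sft2d2, Dppa1, Akr1e1, Tmem171, Oxct1 and Cpne8 were lost without CTR replicate 1, where the adjusted p of these genes was 0.0545 to 0.100, and those of Sft2d2, Oxct1, Cpne8, Bbx and D5Ertd605e when only autosomal genes were fitted.

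**Figure D1:**
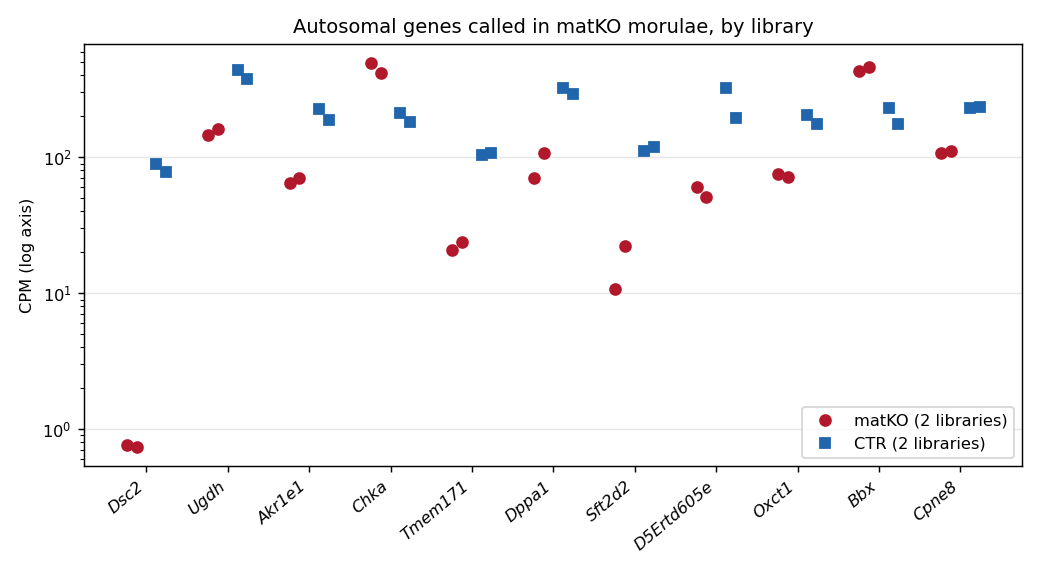
Level of the 11 called autosomal genes in each library, in CPM on a log axis, with the 2 matKO libraries as circles on the left and the 2 CTR libraries as squares on the right of each gene. Chka and Bbx stand higher in both matKO libraries, and the other 9 genes stand lower, with Dsc2 at 0.769 and 0.742 CPM in matKO.

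The letters upstream of the metabolic genes that fell are shown as the stretch searched for motifs of the DNA-binding partners of PCGF6 and of TEAD4, a factor of the trophectoderm. Each is the stretch of 250 bases before the gene's start in RefSeq (build GRCm38.p6), on the gene's strand, 5′ to 3′. Capitals mark any match on either strand to CACGTG, the E-box bound by MAX and MGA, to TCCCGC, a core of E2F sites, or to GGAATG, the TEAD motif. The windows are chr5:65435843-65436092 (minus strand) for Ugdh, chr13:4609165-4609414 (minus strand) for Akr1e1 and chr15:4026178-4026427 (plus strand) for Oxct1.
Ugdh: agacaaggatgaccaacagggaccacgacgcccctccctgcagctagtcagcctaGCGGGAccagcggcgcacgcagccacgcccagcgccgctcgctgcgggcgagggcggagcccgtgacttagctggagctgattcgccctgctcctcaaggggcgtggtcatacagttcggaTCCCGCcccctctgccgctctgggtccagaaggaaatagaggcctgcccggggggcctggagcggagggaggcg
Akr1e1: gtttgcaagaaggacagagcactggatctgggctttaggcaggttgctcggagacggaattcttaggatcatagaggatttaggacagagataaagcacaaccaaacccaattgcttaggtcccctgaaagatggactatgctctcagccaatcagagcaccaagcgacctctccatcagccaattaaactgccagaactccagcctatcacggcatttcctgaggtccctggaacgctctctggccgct
Oxct1: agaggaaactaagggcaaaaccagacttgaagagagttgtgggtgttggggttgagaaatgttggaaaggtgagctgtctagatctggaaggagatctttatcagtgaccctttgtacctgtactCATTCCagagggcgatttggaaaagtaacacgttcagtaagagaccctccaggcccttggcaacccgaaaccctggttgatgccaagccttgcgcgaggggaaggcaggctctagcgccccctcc
The Ugdh window held 2 matches to the E2F core, 195 and 74 bases before the start, the Oxct1 window 1 TEAD match 125 bases before it, and the Akr1e1 window none of the 3 motifs. Promoters of 7 called genes were searched: Ugdh, Akr1e1, Chka, Dppa1, Sft2d2, Oxct1 and Cpne8. None of these 7 held CACGTG, 1 held GGAATG (Oxct1) and 2 held TCCCGC (Ugdh and Cpne8). Over all 32851 promoters of the same length the shares were 6.02% for CACGTG, 12.6% for GGAATG and 16.9% for TCCCGC. A match is a description of these letters and says nothing of binding.

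The metabolic genes that fell stood at similar levels in both matKO libraries. Ugdh (chromosome 5, 65413207 to 65435842, mm10), which oxidises UDP-glucose to UDP-glucuronate for glycosaminoglycan chains, had 145 and 161 CPM in matKO morulae, against 435 and 374 CPM in CTR morulae. Its level was 2.57-fold lower in matKO (log2 −1.36, SE 0.13, adjusted p = 0.0373). Akr1e1 (chromosome 13, 4591123 to 4609164), an aldo-keto reductase, had 64.6 and 70.5 CPM in matKO morulae, against 227 and 189 CPM in CTR morulae. It was 2.99-fold lower (log2 −1.58, SE 0.16, adjusted p = 0.0373). Oxct1 (chromosome 15, 4026428 to 4155344), the CoA transferase that lets mitochondria burn ketone bodies, had 75.4 and 71.2 CPM in matKO morulae, against 206 and 175 CPM in CTR morulae. It was 2.53-fold lower (log2 −1.34, SE 0.16, adjusted p = 0.0484), and its groups, like those of Ugdh and Akr1e1, did not overlap.

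Chka (chromosome 19, 3851585 to 3894369), which phosphorylates choline in the first step towards phosphatidylcholine, had 492 and 418 CPM in matKO morulae, against 211 and 181 CPM in CTR morulae. It was 2.38-fold higher (log2 1.25, SE 0.13, adjusted p = 0.0373). Bbx (chromosome 16, 50191844 to 50432466), a gene reported as imprinted through maternal H3K27me3 in early embryos, had 428 and 459 CPM in matKO morulae, against 232 and 176 CPM in CTR morulae. It was 2.23-fold higher (log2 1.16, SE 0.14, adjusted p = 0.049), and its groups, like those of Chka, did not overlap.

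The largest change among called genes was that of Dsc2 (chromosome 18, 20030633 to 20059554), a desmosomal cadherin. It had 2 reads in both matKO libraries together and 274 in both CTR libraries, a matKO to CTR ratio of 0.00902 (95% exact interval 0.00109 to 0.0329; adjusted p = 0.0104). In CPM this was 0.769 and 0.742 CPM in matKO morulae, against 89.6 and 77.5 CPM in CTR morulae. Sft2d2 (chromosome 1, 165174341 to 165194522), whose protein resembles a yeast factor of vesicle fusion at the Golgi, had 10.8 and 22.3 CPM in matKO morulae, against 112 and 119.1 CPM in CTR morulae. It was 6.76-fold lower (log2 −2.76, SE 0.33, adjusted p = 0.0484), with the 2 matKO libraries themselves apart. Tmem171 (chromosome 13, 98686236 to 98695654), which encodes a membrane protein, had 20.8 and 23.7 CPM in matKO morulae, against 103 and 108 CPM in CTR morulae and was 4.61-fold lower (log2 −2.20, SE 0.24, adjusted p = 0.0378). Cpne8 (chromosome 15, 90487481 to 90679388), a copine that binds phospholipids with calcium, had 108 and 111 CPM in matKO morulae, against 230.2 and 236 CPM in CTR morulae and was 2.08-fold lower (log2 −1.06, SE 0.13, adjusted p = 0.049).

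Dppa1 (chromosome 11, 46607010 to 46629274), a gene known from pluripotent cells and early embryos, had 70.0 and 107 CPM in matKO morulae, against 322 and 294 CPM in CTR morulae. It was 3.38-fold lower (log2 −1.76, SE 0.20, adjusted p = 0.0399), with the 2 matKO libraries apart from each other. D5Ertd605e (chromosome 5, 147418620 to 147423044) had 60.8 and 51.2 CPM in matKO morulae, against 323 and 196 CPM in CTR morulae, a 4.50-fold difference (log2 −2.17, SE 0.26, adjusted p = 0.0484). Its CTR libraries were far apart, but both lay above both matKO libraries. Taken allele by allele and scaled to the allele's total, both matKO libraries lay below both CTR libraries on both alleles for all 9 genes that fell. For the 2 that rose they lay above them on both alleles. The reads of each allele are parts of the totals by which these genes were called, so this is no separate support. The share of all genes tested that separate on both alleles was not counted. For Bbx the maternal reads were 215 and 293 in matKO against 62 and 20 in CTR, and the paternal reads 341 and 326 in matKO against 329 and 260 in CTR.

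**Figure D2:**
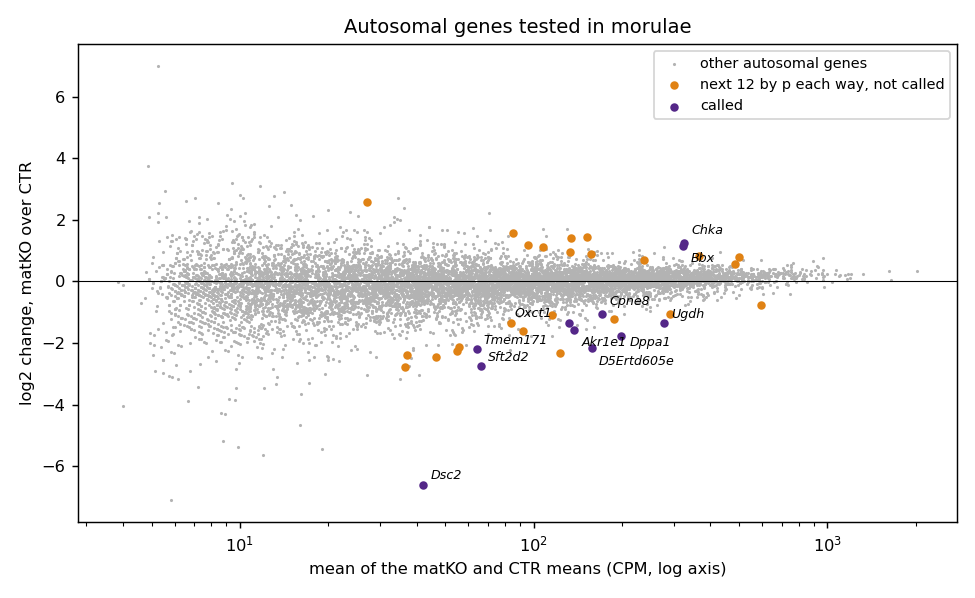
Log2 change of matKO over CTR against the mean level in CPM (log axis) for the 8770 autosomal genes tested, with the 11 called genes named. The next 12 genes by p in each direction lie among the genes around the called ones, and most autosomal genes lie near 0 (median −0.02, quartiles −0.37 and 0.24).

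Among the genes next in order of p, which did not pass (adjusted p = 0.051 to 0.0635), the higher ones were varied and the lower ones held several epithelial and detoxification genes. Fgf3, a ligand of FGF receptors, had 51.5 and 40.8 CPM in matKO morulae, against 7.71 and 8.19 CPM in CTR morulae (log2 2.57, SE 0.37, adjusted p = 0.0557). Nppb, the B-type natriuretic peptide, had 106 and 145 CPM in matKO morulae, against 36.8 and 51.0 CPM in CTR morulae (log2 1.56, SE 0.25, adjusted p = 0.0635). Nin, a centrosome protein, had 219 and 220.4 CPM in matKO morulae, against 69.4 and 98.3 CPM in CTR morulae (log2 1.43, SE 0.19, adjusted p = 0.051). In each of these the 2 matKO libraries stood above both CTR libraries, as the naming rule requires. Exoc3l2 (log2 1.43), the small GTPase gene Rab39 (1.11), the spindle gene Sapcd2 (0.90), the stress-inducible Zfand2a (0.82), Pbld2 (1.18), the nucleolar gene Nol8 (0.58), Zc3h12c (0.96), Zfp33b (0.70) and the F-box gene Fbxl20 (0.80) were the other higher ones.

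On the lower side, 3 genes of the mu class of glutathione S-transferases from 1 cluster on chromosome 3 stood together. Gstm1 (chromosome 3, 108012250 to 108017973) had 13.8 and 14.1 CPM in matKO morulae, against 94.9 and 63.0 CPM in CTR morulae (log2 −2.45, SE 0.33, adjusted p = 0.0555). Gstm2 (chromosome 3, 107981702 to 107986420) had 6.16 and 11.9 CPM in matKO morulae, against 69.4 and 58.0 CPM in CTR morulae (log2 −2.77, SE 0.39, adjusted p = 0.0557), and Gstm7 (chromosome 3, 107926334 to 107931877) had 49.2 and 43.0 CPM in matKO and 119.3 and 124 CPM in CTR (log2 −1.36, SE 0.20, adjusted p = 0.0557). These genes are close copies, and reads shared between them may be split or dropped, so the values of single members are uncertain. Mgmt, which repairs alkylated guanine in DNA, had 43.9 and 45.3 CPM in matKO and 167 and 112 CPM in CTR (log2 −1.61, SE 0.24, adjusted p = 0.0557). Sri, the calcium-binding protein sorcin, had 162 and 210.0 CPM in matKO and 410.0 and 387 CPM in CTR (log2 −1.06, SE 0.14, adjusted p = 0.051), and Tmem134 (−1.08) and Cib2, a calcium and integrin binding protein (−2.26), were lower as well, as were the lineage genes below.

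The 2 lists of trophectoderm genes had medians below 0, and that of epithelial genes was the lower. The members of these and the later lists were chosen with earlier results of these data known, so their counts are not independent support. A list is described by its counts and its median beside those of all 8770 genes. Of these, both matKO libraries lay above both CTR libraries for 23.5% and below them for 29.3% (52.9% not overlapping in all), and the median log2 change was −0.02. At an unadjusted p under 0.05, 788 of the 8770 were higher and 921 lower, the background for such counts in every list. Of 31 epithelial genes tested, both matKO libraries lay below both CTR libraries for 22 (71.0%) and above them for 3 (9.68%), with a median of −0.41. The 22 include Dsc2, which fell, and Krt18, Dsg2 and Tspan8 from the genes next in order of p. DESeq2 called 6 lower and 0 higher. Krt18, the keratin of the first epithelium, had 410.1 and 449.6 CPM in matKO morulae, against 797 and 716 CPM in CTR morulae (log2 −0.78, SE 0.10, adjusted p = 0.051). Its partner Krt8 had 138 and 195 CPM in matKO and 336 and 297 CPM in CTR. Dsg2, the desmosomal cadherin that pairs with desmocollins, had 23.1 and 56.4 CPM in matKO morulae, against 193 and 219 CPM in CTR morulae (log2 −2.33, SE 0.33, adjusted p = 0.0557). Tspan8, a tetraspanin of epithelial membranes, had 90.8 and 131 CPM in matKO morulae, against 259 and 272 CPM in CTR morulae (log2 −1.21, SE 0.18, adjusted p = 0.0557). The matKO libraries were not alike: Dsg2 and Tspan8, like Krt8, were lower in matKO replicate 1 than in replicate 2. The list summed to 4358 and 4923 CPM in matKO libraries, against 6505 and 6101 CPM in CTR libraries, and its median ran from −0.58 without matKO replicate 2 to −0.31 without CTR replicate 1. Such ranges over the fits without 1 of the libraries take the members tested with all 4, less 1 each in the PRC1 and aldo-keto lists without CTR replicate 1.

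Of 25 regulators of the trophectoderm and members of the Hippo pathway, which restricts this fate to outer cells, both matKO libraries lay below both CTR libraries for 12 (48%) and above them for 3 (12%). Their median was −0.25 (−0.38 without matKO replicate 2 to −0.10 without CTR replicate 1). By edgeR 0 were called, with 6 lower and 1 higher at an unadjusted p under 0.05, and DESeq2 called 2 lower. Eomes, a T-box factor of trophoblast stem cells, had 11.5 and 11.9 CPM in matKO morulae, against 65.3 and 59.8 CPM in CTR morulae (log2 −2.37, SE 0.31, adjusted p = 0.051). Id2, an inhibitor of bHLH factors, had 99.3 and 129.8 CPM in matKO morulae, against 212 and 211 CPM in CTR morulae (log2 −0.84, SE 0.16, adjusted p = 0.0743). Wwtr1, the coactivator TAZ that joins TEAD4, had 242 and 232 CPM in matKO and 297 and 329 CPM in CTR (log2 −0.36, SE 0.11, adjusted p = 0.16). Hand1, a bHLH factor of trophoblast giant cells, went the other way, with 96.9 and 74.9 CPM in matKO and 14.2 and 46.0 CPM in CTR (log2 1.56, SE 0.48, adjusted p = 0.153). Among the markers, Cdx2, the homeobox factor of the trophectoderm, had 6.92 and 23.0 CPM in matKO and 29.1 and 28.3 CPM in CTR, so that 1 matKO library stood well below and the other close to CTR. Gata3 had 88.5 and 152 CPM in matKO and 204 and 195 CPM in CTR, and Tead4 had 299 and 215 CPM in matKO and 241 and 228 CPM in CTR, with no gap between the groups for Tead4.

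Genes of adhesion, compaction and polarity stood closer to the background. Of 30 tested, both matKO libraries lay below both CTR libraries for 6 (20%) and above them for 1 (3.33%), with a median of −0.10 (−0.17 without matKO replicate 2 to −0.01 without matKO replicate 1). None passed edgeR's test, 3 lower and 0 higher had an unadjusted p under 0.05, and DESeq2 called 1 lower. Vcl, the vinculin that ties junctions to actin, had 74.6 and 82.4 CPM in matKO and 171 and 141 CPM in CTR (log2 −0.95, SE 0.17, adjusted p = 0.0737), and Prkci, the atypical protein kinase C of the apical domain, 111 and 117 CPM in matKO and 185 and 165 CPM in CTR (log2 −0.58, SE 0.14, adjusted p = 0.116). Of 10 genes of the postimplantation trophoblast, both matKO libraries lay below both CTR libraries for 4 (40%) and above them for 1 (10%). Their median was −0.32 (−0.43 without matKO replicate 2 to −0.19 without matKO replicate 1). By edgeR or DESeq2 0 passed, with 2 lower and 0 higher at an unadjusted p under 0.05. Fgfbp1, a carrier of FGF ligands, had 147 and 114 CPM in matKO and 262 and 174 CPM in CTR (log2 −0.70, SE 0.22, adjusted p = 0.158).

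The list of primitive endoderm genes, of the lineage that will line the yolk sac, had a median below 0 too. For 18 tested, both matKO libraries lay below both CTR libraries for 7 (38.9%) and above them for 1 (5.56%), with a median of −0.49 (−0.41 without CTR replicate 2 to −0.31 without CTR replicate 1). The matrix genes Sparc (41.5 and 42.3 CPM in matKO and 101 and 93.2 CPM in CTR; log2 −1.17, SE 0.21, adjusted p = 0.0737) and Nid2 (15.4 and 16.3 CPM in matKO and 75.3 and 32.8 CPM in CTR; log2 −1.73, SE 0.46, adjusted p = 0.125) and the growth factor receptor Pdgfra (24.6 and 37.8 CPM in matKO and 59.3 and 118 CPM in CTR; log2 −1.46, SE 0.39, adjusted p = 0.129) had the smallest p. None passed by edgeR, 5 lower and 1 higher had an unadjusted p under 0.05, and DESeq2 called 1 lower. The list summed to 2917 and 3455 CPM in matKO libraries, against 3687 and 3419 CPM in CTR libraries, with no gap between the groups in this total. Among the lineage's markers, Gata6 had 193 and 188 CPM in matKO and 179 and 192 CPM in CTR, and its groups overlapped. Sox17 was lower in matKO at few reads, with 1 and 0 reads in matKO and 16 and 6 in CTR. Gata4 was near the floor, with 5 and 3 reads in matKO and 2 and 5 in CTR.

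Genes of the inner cell mass did not share the direction of the trophectoderm genes. For 20 pluripotency genes, both matKO libraries lay above both CTR libraries for 6 (30%) and below them for 2 (10%), with a median of 0.16 (0.03 without matKO replicate 2 to 0.44 without CTR replicate 2). By edgeR and DESeq2 0 were called, with 4 higher and 2 lower at an unadjusted p under 0.05. Nr5a2, a nuclear receptor of early embryos, had 286 and 259.7 CPM in matKO and 177 and 195 CPM in CTR (log2 0.59, SE 0.13, adjusted p = 0.078). Sox2, by contrast, had 9 reads in both matKO libraries together and 43 in both CTR libraries, a matKO to CTR ratio of 0.259 (95% exact interval 0.111 to 0.538; adjusted p = 0.166). Stat3 had 44.6 and 64.5 CPM in matKO and 94.3 and 89.5 CPM in CTR (log2 −0.71, SE 0.24, adjusted p = 0.177). Nanog had 175 and 234 CPM in matKO and 157 and 232 CPM in CTR, and its groups overlapped.

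Apart from Dppa1, which fell, the genes of the Dppa list stood higher. For 15 tested, both matKO libraries lay above both CTR libraries for 7 (46.7%) and below them for 1 (6.67%), with a median of 0.38 (0.27 without CTR replicate 1 to 0.48 without CTR replicate 2), and DESeq2 called 1 higher and 1 lower. Dppa3, which protects the maternal genome's methylation pattern in the zygote, had 1023 and 1002 CPM in matKO and 754 and 842 CPM in CTR (log2 0.38, SE 0.09, adjusted p = 0.103), and Pramel7 908 and 939 CPM in matKO and 691 and 750.3 CPM in CTR (log2 0.40, SE 0.09, adjusted p = 0.086). Each difference was small, and neither passed.

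**Figure D3:**
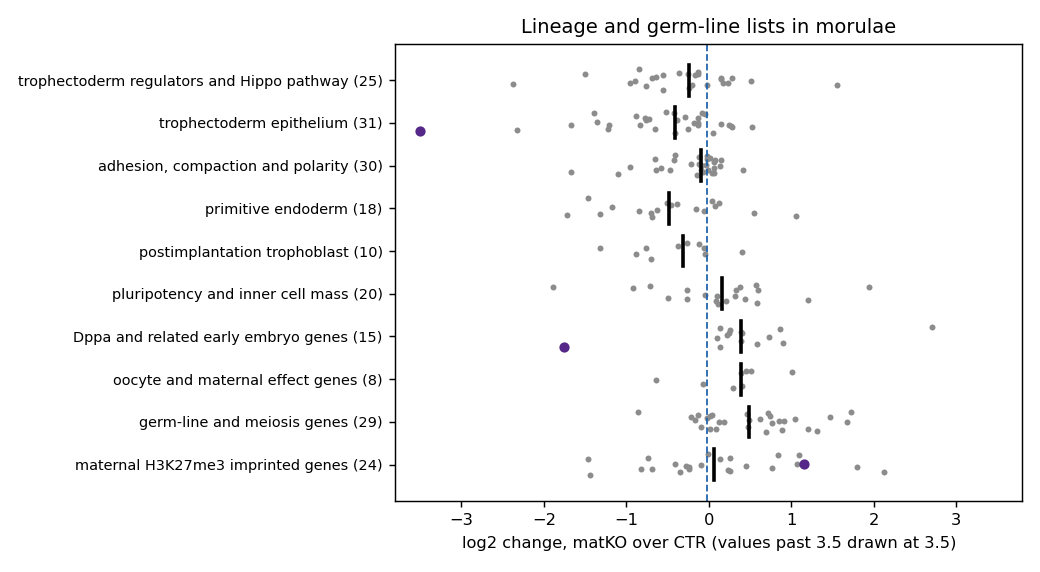
Log2 change of matKO over CTR for the tested members of 10 lineage and germ-line lists, 1 point per gene, with the number tested beside each name. Large dark points passed the test, black bars are list medians and the dashed line is the median of all genes tested (−0.02). Trophectoderm epithelium (−0.41) and primitive endoderm (−0.49) have their medians left of the line, and the Dppa (0.38) and germ-line (0.49) lists right of it.

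Germ-line and oocyte genes were on the higher side. For 29 germ-line and meiosis genes, which the PCGF6 form of PRC1 is known to keep silent in embryonic stem cells, both matKO libraries lay above both CTR libraries for 12 (41.4%) and below them for 2 (6.90%), with a median of 0.49. By edgeR 0 passed, 8 higher and 1 lower had an unadjusted p under 0.05, and DESeq2 called 2 higher. Ddx4, the germ cell RNA helicase, had 174 and 154 CPM in matKO morulae, against 32.6 and 69.9 CPM in CTR morulae (log2 1.72, SE 0.32, adjusted p = 0.0743). Sycp1, of the synaptonemal complex, had 180.0 and 142 CPM in matKO morulae, against 35.0 and 84.4 CPM in CTR morulae (log2 1.47, SE 0.36, adjusted p = 0.111). Majin, which ties telomeres to the nuclear membrane in meiosis, had 206 and 213 CPM in matKO and 93.7 and 146 CPM in CTR (log2 0.85, SE 0.21, adjusted p = 0.111). For Ddx4 and Sycp1 CTR replicate 1 was the lowest library, well below CTR replicate 2. The list's median was 0.19 without matKO replicate 1 and 0.77 without matKO replicate 2. A gene near silent in CTR enters such a list only if it is higher in matKO, which favours positive values.

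Of 49 oocyte and maternal effect genes listed, 8 were tested (median 0.39, 0.19 without matKO replicate 1 to 0.49 without CTR replicate 2), with 0 calls by edgeR or DESeq2 and 3 higher at an unadjusted p under 0.05. Of the 8, both matKO libraries lay above both CTR libraries for 4 (50%) and below them for 2 (25%). Rnf114, a ubiquitin ligase, had 680.1 and 611 CPM in matKO and 478 and 529 CPM in CTR (log2 0.40, SE 0.10, adjusted p = 0.123). The 2-cell list had 5 tested genes. Both matKO libraries lay above both CTR libraries for 2 (40%) and below them for 0 (0%), with a median of 0.39 (0.05 without matKO replicate 1 to 0.78 without matKO replicate 2). This list had 0 calls by either tool, and 1 gene had an unadjusted p under 0.05. Of 24 genes reported as imprinted through maternal H3K27me3, Bbx rose, and the values lay on both sides of 0. Both matKO libraries lay above both CTR libraries for 8 (33.3%) and below them for 5 (20.8%), 12 values were positive and 12 negative, and the median was 0.06 (−0.05 without CTR replicate 2 to 0.23 without CTR replicate 1). Of these, 6 higher and 5 lower had an unadjusted p under 0.05. Gramd1b (36.2 and 45.3 CPM in matKO and 3.56 and 15.7 CPM in CTR; log2 2.12, SE 0.59, adjusted p = 0.135), Rftn2 (60.8 and 47.5 CPM in matKO and 24.3 and 27.7 CPM in CTR; log2 1.09, SE 0.30, adjusted p = 0.131) and Epas1, the hypoxia factor HIF-2alpha (112 and 167 CPM in matKO and 90.8 and 69.3 CPM in CTR; log2 0.84, SE 0.24, adjusted p = 0.135), had the next smallest p.

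Carbohydrate genes were mixed, with single enzymes on both sides. Of 22 genes of glycolysis and lactate, both matKO libraries lay below both CTR libraries for 10 (45.5%) and above them for 4 (18.2%). Their median was −0.41 (−0.43 without CTR replicate 1 to −0.21 without CTR replicate 2), although 10 of the 22 values were positive. None passed edgeR's test, with 5 lower and 3 higher at an unadjusted p under 0.05, and DESeq2 called 1 lower and 1 higher. Hk1, the hexokinase that traps glucose in the cell, had 100.0 and 103 CPM in matKO morulae, against 55.2 and 55.4 CPM in CTR morulae (log2 0.92, SE 0.19, adjusted p = 0.0776). Tigar, a phosphatase that slows glycolysis, had 1045 and 1094 CPM in matKO and 749 and 847 CPM in CTR (log2 0.46, SE 0.09, adjusted p = 0.0749). Pgm2, a phosphopentomutase and phosphoglucomutase, had 7.69 and 4.45 CPM in matKO morulae, against 49.8 and 25.2 CPM in CTR morulae (log2 −2.58, SE 0.53, adjusted p = 0.0749), and Gpi1, which makes fructose 6-phosphate, had 86.2 and 88.3 CPM in matKO and 155 and 127 CPM in CTR (log2 −0.66, SE 0.17, adjusted p = 0.123). The list summed to 2479 and 2652 CPM in matKO libraries, against 2542 and 2606 CPM in CTR libraries, with no gap between the groups in this total.

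In the sugar nucleotide list Ugdh fell, and no other member passed edgeR's test. Of 24 tested, both matKO libraries lay below both CTR libraries for 10 (41.7%) and above them for 3 (12.5%), with a median of −0.13 (−0.47 without matKO replicate 1 to −0.17 without CTR replicate 2). Ugp2, which makes the UDP-glucose that UGDH uses, had 56.2 and 118.7 CPM in matKO morulae, against 215 and 216 CPM in CTR morulae (log2 −1.26, SE 0.29, adjusted p = 0.0987). Gnpda1, of glucosamine turnover, had 96.2 and 84.6 CPM in matKO and 193 and 138 CPM in CTR (log2 −0.84, SE 0.20, adjusted p = 0.108), and Cmas, which activates sialic acid, 14.6 and 23.0 CPM in matKO and 47.5 and 40.9 CPM in CTR (log2 −1.19, SE 0.35, adjusted p = 0.145). DESeq2 called 2 lower. For Ugp2 the matKO libraries were apart, with replicate 1 the lower.

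In the list of aldo-keto and aldehyde genes Akr1e1 fell. Of 21 tested, both matKO libraries lay below both CTR libraries for 10 (47.6%) and above them for 3 (14.3%). Without Akr1e1 these were 9 (45%) and 3 (15%) of 20, with a median of −0.45. Of these 20, 7 lower and 1 higher had an unadjusted p under 0.05, and DESeq2 called 1 lower, against 2 with Akr1e1. With it the median was −0.49, but −0.24 without CTR replicate 1 and −0.80 without matKO replicate 1. Akr1c13, another aldo-keto reductase on chromosome 13, had 2.31 and 5.94 CPM in matKO morulae, against 26.1 and 43.5 CPM in CTR morulae (log2 −3.00, SE 0.56, adjusted p = 0.0743). It belongs to a family of close copies, so its count is uncertain. Aldh9a1, an aldehyde dehydrogenase that also serves carnitine synthesis, had 53.1 and 52.7 CPM in matKO and 111 and 101 CPM in CTR (log2 −0.96, SE 0.20, adjusted p = 0.0749), and Adh5, which clears formaldehyde, 199 and 155 CPM in matKO and 272 and 280.3 CPM in CTR (log2 −0.60, SE 0.15, adjusted p = 0.11). DESeq2 called 2 lower.

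In mitochondrial metabolism the list of the respiratory chain and that of pyruvate and the tricarboxylic acid cycle had medians on different sides of 0. Of 58 nuclear genes of oxidative phosphorylation, both matKO libraries lay above both CTR libraries for 27 (46.6%) and below them for 11 (19.0%), with a median of 0.12 (0.07 without CTR replicate 1 to 0.17 without CTR replicate 2). The members' log2 changes ran from −1.76 to 0.54. Ndufb5, with the smallest p, had 6.92 and 3.71 CPM in matKO and 19.6 and 17.6 CPM in CTR (log2 −1.76, SE 0.53, adjusted p = 0.151). Cox7c was higher (log2 0.54, SE 0.20, adjusted p = 0.21) and Ndufv1 lower (log2 −0.40, SE 0.15, adjusted p = 0.214). Uqcr10, of complex III, had 410.1 and 427 CPM in matKO and 356 and 371 CPM in CTR (log2 0.24, SE 0.10, adjusted p = 0.224). None passed by edgeR or DESeq2, and 4 higher and 2 lower had an unadjusted p under 0.05. Of 33 genes of pyruvate and the tricarboxylic acid cycle, both matKO libraries lay below both CTR libraries for 15 (45.5%) and above them for 8 (24.2%), with a median of −0.17 (−0.21 without matKO replicate 1 to −0.07 without CTR replicate 1). Me2, the mitochondrial malic enzyme, had 126 and 86.8 CPM in matKO morulae, against 299.6 and 234 CPM in CTR morulae (log2 −1.29, SE 0.21, adjusted p = 0.0635). Idh3a, of the NAD-dependent isocitrate dehydrogenase, had 241 and 314 CPM in matKO and 409 and 407 CPM in CTR (log2 −0.52, SE 0.14, adjusted p = 0.124), and Mdh1, the cytosolic malate dehydrogenase, 189 and 223 CPM in matKO and 286 and 297 CPM in CTR (log2 −0.46, SE 0.13, adjusted p = 0.133). Pdp2, the phosphatase that switches on pyruvate dehydrogenase, had 618 and 512 CPM in matKO and 224 and 375 CPM in CTR (log2 0.96, SE 0.23, adjusted p = 0.102). Here edgeR called 0, 9 lower and 4 higher had an unadjusted p under 0.05, and DESeq2 called 2 lower and 1 higher.

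Fatty acid oxidation was lower in more of its genes than the background. Of 34 tested, both matKO libraries lay below both CTR libraries for 18 (52.9%) and above them for 7 (20.6%). The median was −0.36 (−0.46 without CTR replicate 2 to −0.21 without CTR replicate 1). Cpt2, which hands long-chain fatty acids to the mitochondrial matrix, had 20.8 and 28.2 CPM in matKO morulae, against 106 and 58.6 CPM in CTR morulae (log2 −1.71, SE 0.36, adjusted p = 0.0776). The beta-oxidation enzymes Acaa2 (335 and 270.1 CPM in matKO and 435 and 486 CPM in CTR; log2 −0.57, SE 0.13, adjusted p = 0.101), Hadh (164 and 181 CPM in matKO and 264 and 243 CPM in CTR; log2 −0.52, SE 0.13, adjusted p = 0.11) and Decr1 (61.6 and 74.2 CPM in matKO and 113 and 109 CPM in CTR; log2 −0.67, SE 0.19, adjusted p = 0.135) had the next smallest p. None passed edgeR's test, 11 lower and 2 higher had an unadjusted p under 0.05, and DESeq2 called 1 lower. Of 8 ketone body genes, Oxct1 fell, while the median was −0.02 (−0.05 without CTR replicate 2 to 0.12 without matKO replicate 2) and Aacs, which uses acetoacetate for lipid synthesis in the cytosol, had 134 and 115 CPM in matKO and 103 and 58.0 CPM in CTR (log2 0.66, SE 0.27, adjusted p = 0.235).

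Cholesterol genes had the lowest median of the metabolic lists, and it rested on 1 library. Of 27 tested, both matKO libraries lay below both CTR libraries for 10 (37.0%) and above them for 1 (3.70%), with a median of −0.58. Without CTR replicate 1 the median was −0.12. The list summed to 3391 and 2976 CPM in matKO libraries, against 5128 and 3252 CPM in CTR libraries, so that CTR replicate 1 stood above the other 3 libraries. Mvk, the mevalonate kinase, had 40.8 and 16.3 CPM in matKO morulae, against 222 and 54.2 CPM in CTR morulae (log2 −2.24, SE 0.68, adjusted p = 0.148), Mvd, which acts later in the same route, 49.2 and 49.7 CPM in matKO and 155 and 75.6 CPM in CTR (log2 −1.18, SE 0.34, adjusted p = 0.139), and Sc5d, which desaturates sterols, 75.4 and 94.2 CPM in matKO and 195 and 129.8 CPM in CTR (log2 −0.90, SE 0.23, adjusted p = 0.122). By edgeR and DESeq2 0 passed, with 8 lower and 1 higher at an unadjusted p under 0.05.

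Of 26 genes of fatty acid synthesis and lipid storage, both matKO libraries lay below both CTR libraries for 9 (34.6%) and above them for 3 (11.5%) (median −0.16, −0.17 without CTR replicate 2 to −0.05 without CTR replicate 1). Scd2, a stearoyl-CoA desaturase, had 235 and 244 CPM in matKO morulae, against 449 and 381 CPM in CTR morulae (log2 −0.75, SE 0.12, adjusted p = 0.0565), Scd1 53.1 and 66.0 CPM in matKO and 128 and 85.0 CPM in CTR (log2 −0.80, SE 0.25, adjusted p = 0.16) and Srebf1, a master regulator of lipid synthesis, 20.00 and 28.9 CPM in matKO and 58.7 and 49.8 CPM in CTR (log2 −1.11, SE 0.31, adjusted p = 0.137). Plin2, which coats lipid droplets, had 247 and 211 CPM in matKO and 316 and 295 CPM in CTR (log2 −0.37, SE 0.12, adjusted p = 0.173). Here 0 passed by edgeR, 4 lower and 1 higher had an unadjusted p under 0.05, and DESeq2 called 1 lower.

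Beside the rise of Chka, other genes of choline and phospholipid synthesis lay on both sides. Of 25 tested, both matKO libraries lay above both CTR libraries for 10 (40%) and below them for 7 (28%), with a median of 0.05 (0.01 without matKO replicate 1 to 0.27 without CTR replicate 1). Pemt, which makes phosphatidylcholine by methylation, had 616 and 637 CPM in matKO and 455 and 525 CPM in CTR (log2 0.40, SE 0.10, adjusted p = 0.123). Gpcpd1, which frees glycerol phosphate from glycerophosphocholine, had 486 and 467 CPM in matKO and 314 and 386 CPM in CTR (log2 0.49, SE 0.12, adjusted p = 0.118). The choline transporter Slc44a1 had 175 and 197 CPM in matKO and 256 and 272 CPM in CTR (log2 −0.47, SE 0.12, adjusted p = 0.127). DESeq2 called 1, Chka, in this list.

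The lists of serine and one-carbon metabolism and of purine and pyrimidine synthesis had medians above 0. Their members lay on both sides of 0, with log2 changes from −0.81 to 1.62 and from −1.56 to 0.54, in the same order. Of 30 genes of serine, glycine and one-carbon metabolism, both matKO libraries lay above both CTR libraries for 15 (50%) and below them for 6 (20%), with a median of 0.20 (0.14 without matKO replicate 1 to 0.30 without CTR replicate 2). Tdh, the threonine dehydrogenase on which mouse embryonic stem cells depend, had 227 and 174 CPM in matKO and 82.5 and 149.9 CPM in CTR (log2 0.83, SE 0.28, adjusted p = 0.174). Psat1, of serine synthesis, had 713 and 706 CPM in matKO and 539.9 and 598 CPM in CTR (log2 0.36, SE 0.09, adjusted p = 0.123), yet Psph, the last enzyme of the same route, had 142 and 149.9 CPM in matKO morulae, against 269 and 255 CPM in CTR morulae (log2 −0.81, SE 0.12, adjusted p = 0.0557). By edgeR 0 passed, 6 higher and 1 lower had an unadjusted p under 0.05, and DESeq2 called 1 lower. Of 35 genes of purine and pyrimidine synthesis, both matKO libraries lay above both CTR libraries for 13 (37.1%) and below them for 5 (14.3%) (median 0.11, 0.12 without CTR replicate 1 to 0.15 without matKO replicate 2). Aprt, which salvages adenine, had 556 and 528 CPM in matKO and 391 and 419 CPM in CTR (log2 0.46, SE 0.10, adjusted p = 0.0758), and Cad, which starts pyrimidine synthesis, 228 and 189 CPM in matKO and 161 and 137 CPM in CTR (log2 0.53, SE 0.16, adjusted p = 0.147). Here 0 passed by either tool, with 8 higher and 1 lower at an unadjusted p under 0.05.

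Of 16 amino acid transporters, both matKO libraries lay below both CTR libraries for 7 (43.8%) and above them for 4 (25%) (median −0.27, −0.41 without matKO replicate 2 to −0.18 without CTR replicate 1). Slc38a9, the lysosomal arginine sensor, had 17.7 and 17.8 CPM in matKO and 48.1 and 51.7 CPM in CTR (log2 −1.45, SE 0.31, adjusted p = 0.0776), and Slc1a3, a glutamate carrier, 5.39 and 8.16 CPM in matKO and 26.1 and 32.8 CPM in CTR (log2 −2.06, SE 0.45, adjusted p = 0.0823). By edgeR and DESeq2 0 passed, with 4 lower and 2 higher at an unadjusted p under 0.05. The 16 genes of polyamines, creatine and the urea cycle had a median of 0.12 (0.07 without matKO replicate 1 to 0.19 without matKO replicate 2), 0 calls by either tool and 2 lower and 1 higher at an unadjusted p under 0.05. Azin1, which spares ornithine decarboxylase from decay, had 360.1 and 354 CPM in matKO and 268 and 263 CPM in CTR (log2 0.47, SE 0.10, adjusted p = 0.0803). The 5 genes of the pentose phosphate pathway had a median of −0.15 (−0.22 without CTR replicate 1 to 0.11 without CTR replicate 2), with 0 calls and 0 at an unadjusted p under 0.05 by edgeR and 0 calls by DESeq2.

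**Figure D4:**
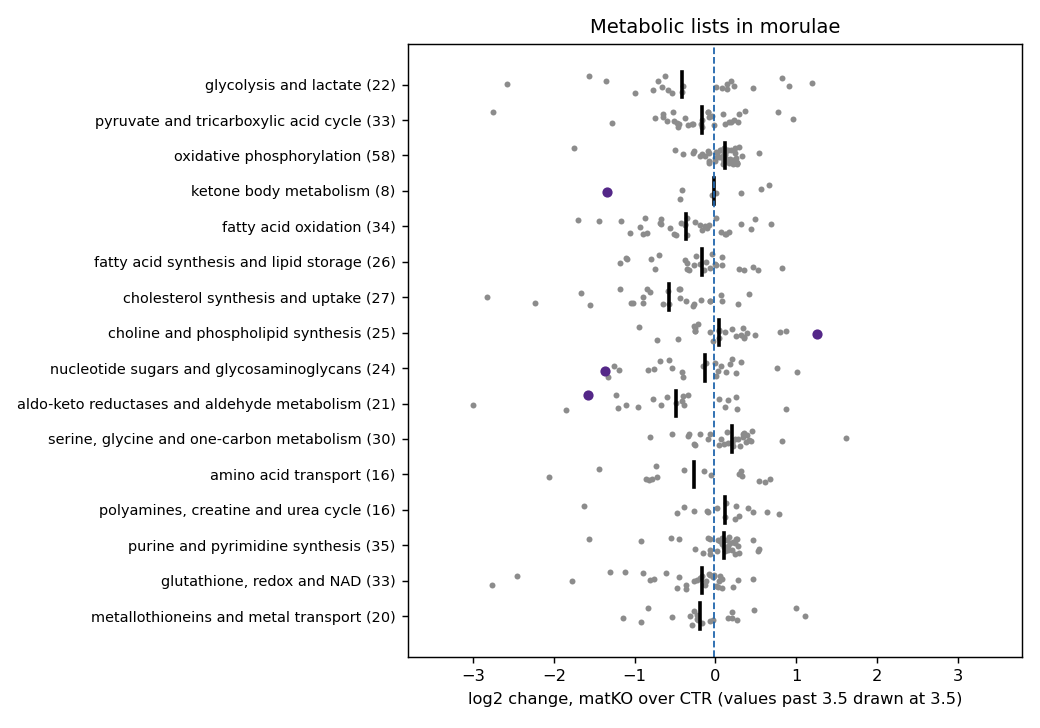
Log2 change of matKO over CTR for the tested members of 16 metabolic lists, 1 point per gene, with the number tested beside each name. Large dark points passed the test (Oxct1, Chka, Ugdh and Akr1e1), black bars are list medians and the dashed line is the median of all genes tested (−0.02). Cholesterol (−0.58) and the aldo-keto list (−0.49) lie farthest left and the serine and one-carbon list (0.20) farthest right.

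Redox and metal genes completed the metabolic lists. Of 33 genes of glutathione, redox and NAD, both matKO libraries lay below both CTR libraries for 13 (39.4%) and above them for 4 (12.1%), with a median of −0.16 (−0.20 without CTR replicate 2 to −0.05 without CTR replicate 1). Besides Gstm1 and Gstm2, Srxn1, which restores peroxiredoxins, had 46.9 and 54.9 CPM in matKO and 249 and 109.6 CPM in CTR (log2 −1.78, SE 0.37, adjusted p = 0.0776) and Mgst3, a microsomal glutathione S-transferase, 21.5 and 31.2 CPM in matKO and 57.5 and 60.5 CPM in CTR (log2 −1.12, SE 0.30, adjusted p = 0.129). By edgeR 0 passed, 6 lower and 1 higher had an unadjusted p under 0.05, and DESeq2 called 3 lower. Of 20 metallothioneins and metal transporters, both matKO libraries lay below both CTR libraries for 9 (45%) and above them for 6 (30%) (median −0.19, −0.21 without matKO replicate 2 to −0.04 without CTR replicate 2). Tfrc, the transferrin receptor that takes up iron, had 385 and 370.2 CPM in matKO morulae, against 140.0 and 219 CPM in CTR morulae (log2 1.11, SE 0.20, adjusted p = 0.0728), and Slc31a1, which takes up copper, 63.9 and 68.3 CPM in matKO and 117 and 125 CPM in CTR (log2 −0.83, SE 0.18, adjusted p = 0.0776). In this list 0 passed by edgeR, 4 higher and 3 lower had an unadjusted p under 0.05, and DESeq2 called 1 higher.

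Genes of growth and division were slightly higher. Of 68 cytoplasmic ribosomal protein genes, both matKO libraries lay above both CTR libraries for 39 (57.4%) and below them for 6 (8.82%), with a median of 0.22. None passed by edgeR or DESeq2, and 15 higher and 0 lower had an unadjusted p under 0.05. Rps26 had 292 and 290.1 CPM in matKO and 195 and 236 CPM in CTR (log2 0.47, SE 0.13, adjusted p = 0.135). Of 30 cell cycle genes, both matKO libraries lay above both CTR libraries for 13 (43.3%) and below them for 4 (13.3%) (median 0.16, 0.11 without CTR replicate 1 to 0.17 without matKO replicate 2), with Cdk1, the mitotic kinase, at 738 and 751 CPM in matKO and 545 and 624 CPM in CTR (log2 0.39, SE 0.10, adjusted p = 0.121). Here too 0 passed by edgeR or DESeq2, and 6 higher and 2 lower had an unadjusted p under 0.05.

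Stress lists showed no common direction. Of 25 genes of the p53 response and apoptosis, both matKO libraries lay above both CTR libraries for 5 (20%, against 23.5% of all genes) and below them for 0 (0%). The median was 0.14 (−0.09 without matKO replicate 1 to 0.33 without matKO replicate 2). Bid, a trigger of mitochondrial apoptosis, had 320.1 and 273 CPM in matKO and 206 and 166 CPM in CTR (log2 0.71, SE 0.15, adjusted p = 0.0776). By edgeR 0 passed, 2 had an unadjusted p under 0.05, and DESeq2 called 1 higher. Of 12 immediate early genes, both matKO libraries lay above both CTR libraries for 7 (58.3%) and below them for 2 (16.7%). Their median was 0.35 (0.20 without matKO replicate 1 to 0.38 without matKO replicate 2). Fos had 136 and 111 CPM in matKO and 64.1 and 61.1 CPM in CTR (log2 1.02, SE 0.19, adjusted p = 0.0743), while Klf6 had 76.2 and 50.5 CPM in matKO and 224 and 137 CPM in CTR (log2 −1.47, SE 0.29, adjusted p = 0.0748). By edgeR 0 passed, 4 higher and 2 lower had an unadjusted p under 0.05, and DESeq2 called 1 higher and 1 lower. Of 16 genes of the integrated stress response and unfolded proteins, both matKO libraries lay below both CTR libraries for 9 (56.2%) and above them for 2 (12.5%) (median −0.22, −0.31 without CTR replicate 1 to −0.07 without matKO replicate 1). Pdia6, a folding enzyme of the endoplasmic reticulum, had 202 and 200.3 CPM in matKO and 295 and 316 CPM in CTR (log2 −0.56, SE 0.11, adjusted p = 0.0749). By edgeR and DESeq2 0 passed, with 4 lower and 1 higher at an unadjusted p under 0.05.

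The membrane traffic list held 3 of the 9 falls, Tmem171, Sft2d2 and Cpne8, and was drawn up with those calls known. Of 24 tested, both matKO libraries lay below both CTR libraries for 11 (45.8%) and above them for 1 (4.17%) (median −0.29, −0.50 without matKO replicate 2 to −0.18 without CTR replicate 1), and DESeq2 called 4 lower. Anxa5, an annexin that binds phosphatidylserine, had 34.6 and 46.0 CPM in matKO morulae, against 96.7 and 95.1 CPM in CTR morulae (log2 −1.21, SE 0.23, adjusted p = 0.0743).

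Of the chromatin lists, those of PRC1 and PRC2 had medians above 0 and that of DNA methylation a median below 0. Of 27 PRC1 genes, both matKO libraries lay above both CTR libraries for 7 (25.9%) and below them for 3 (11.1%) (median 0.07, −0.01 without CTR replicate 1 to 0.21 without CTR replicate 2), with Pcgf5, a paralog of the deleted genes, at 321 and 307 CPM in matKO and 249 and 224 CPM in CTR (log2 0.45, SE 0.11, adjusted p = 0.116). Rnf2, the ubiquitin ligase of PRC1, had 358 and 322 CPM in matKO and 265 and 298 CPM in CTR (log2 0.31, SE 0.12, adjusted p = 0.21). Of 10 PRC2 genes, both matKO libraries lay above both CTR libraries for 3 (30%) and below them for 0 (0%), with a median of 0.15 (0.03 without CTR replicate 1 to 0.28 without CTR replicate 2). Of 19 genes of DNA methylation, both matKO libraries lay below both CTR libraries for 9 (47.4%) and above them for 4 (21.1%), with a median of −0.12 (−0.21 without matKO replicate 2 to −0.04 without CTR replicate 1). In these 3 lists 0 passed by edgeR or DESeq2, and the numbers at an unadjusted p under 0.05 were 3 higher and 0 lower, 2 and 0, and 2 and 3, in the same order. Dnmt3b, a methyltransferase that acts around implantation, had 54.6 and 71.2 CPM in matKO and 131 and 101 CPM in CTR (log2 −0.84, SE 0.22, adjusted p = 0.125).

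Of the genes called in morulae, Bbx was also called in oocytes, and none was called in ExE. In ExE 0 of 8081 autosomal genes were called by edgeR, 1112 had an unadjusted p under 0.05 and DESeq2 called 202. In FGO 680 of 12969 rose (5.24%) and 239 fell (1.84%), 7.09% in either direction. Of the 11 genes called in morulae, 9 were tested in ExE and 10 in FGO. Bbx rose in FGO too, with 43.0 and 35.4 CPM in KO oocytes, against 7.74 and 4.39 CPM in CTR oocytes (log2 2.59, SE 0.27, adjusted p = 0.00154). Tmem171 (log2 −0.82, SE 0.21, adjusted p = 0.0533) and Dppa1 (log2 −0.87, SE 0.22, adjusted p = 0.0527) were lower in KO oocytes, just past the threshold. Chka (−0.31), Sft2d2 (0.01) and Cpne8 (0.64) had the opposite sign in FGO and did not pass there. The difference of the morula and ExE effects, as an interaction term in 1 edgeR fit, passed for 34 of 10795 autosomal genes (0.315%), 6 higher (0.0556%) and 28 lower (0.259%) in the morula. Dsc2 had 93.9, 104, 147 and 136 CPM in matKO ExE, against 116 and 128 CPM in CTR ExE, and its effect in morulae minus that in ExE was −6.53 (SE 0.55, adjusted p = 6.99e-05), a fitted value that rests on 2 reads in matKO morulae. Sft2d2 (−3.04, adjusted p = 0.00993) and Akr1e1 (−1.56, adjusted p = 0.0108) also differed. Dsc2 passed with each morula library left out. The other 2 calls were lost without matKO replicate 1 (adjusted p = 0.0655 for Sft2d2 and 0.0772 for Akr1e1) and without CTR replicate 1 (adjusted p = 0.0538 for Sft2d2 and 0.0858 for Akr1e1). For Ugdh, Chka, Bbx, Cpne8, Oxct1 and D5Ertd605e the difference from ExE did not pass (adjusted p = 0.0908 to 0.924), which does not show that the effects were alike.

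Against FGO the difference passed for 362 of 14208 autosomal genes (2.55%), 51 higher (0.359%) and 311 lower (2.19%) in the morula. Among the called genes it passed for Dsc2 (−6.32, adjusted p = 7.22e-04), Sft2d2 (−2.78, adjusted p = 0.00444), Oxct1 (−1.29, adjusted p = 0.0113), Cpne8 (−1.70, adjusted p = 0.0216) and Bbx (−1.43, adjusted p = 0.0369), whose log2 change was larger in FGO. With single morula libraries left out Dsc2 and Sft2d2 kept this call, and the others lost it: Oxct1 without CTR replicate 1 (adjusted p = 0.0596), Cpne8 without matKO replicate 1, CTR replicate 1 or CTR replicate 2 (0.0637 to 0.0699) and Bbx without matKO replicate 1, matKO replicate 2 or CTR replicate 1 (0.0702 to 0.146). The difference from FGO did not pass for Ugdh, Akr1e1, Chka, Tmem171, Dppa1 and D5Ertd605e (adjusted p = 0.0547 to 0.197), which does not show that the effects were alike. Mt1, a metallothionein, had 442 and 343 CPM in KO oocytes, against 2.96 and 2.41 CPM in CTR oocytes, but 425 and 430.3 CPM in matKO and 350.0 and 379.9 CPM in CTR morulae (log2 0.27, SE 0.10, adjusted p = 0.202). FGO counts take all reads of a gene and morula counts those assigned to a parent, so the effects are compared and not the levels. With DESeq2's size factors the median of all differences from FGO was 0.08 in place of −0.07, and 72 were higher and 225 lower.

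**Figure D5:**
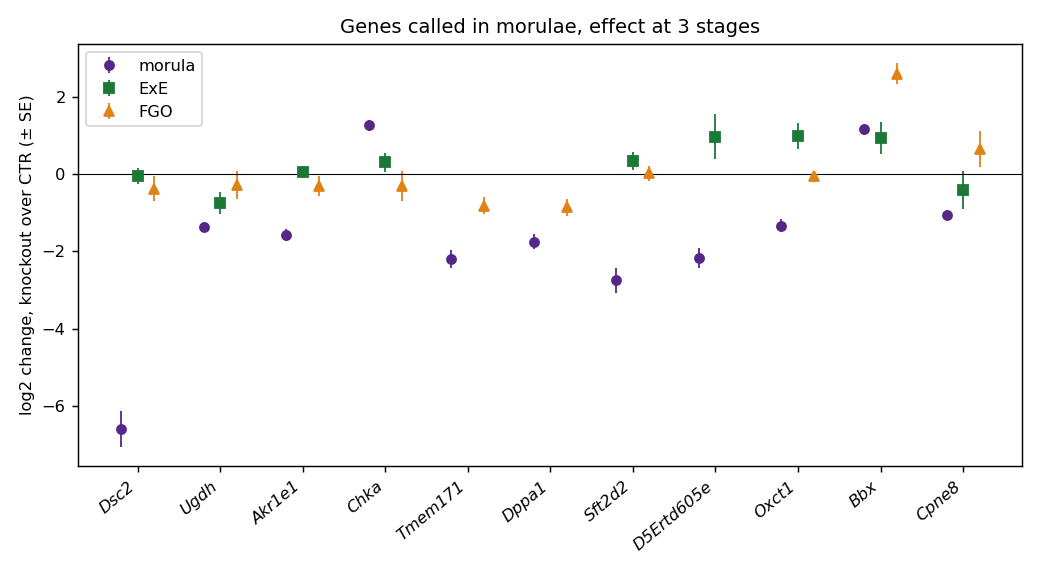
Log2 change of knockout over CTR with its SE for the 11 genes called in morulae, at the morula, ExE and FGO stages. A gene not tested at a stage has no point there, as Dppa1 and Tmem171 in ExE. Dsc2 stands at −6.60 in morulae and at −0.06 in ExE, and Bbx above 0 at all 3 stages.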

How the data were processed

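RNA of oocytes, morulae and ExE was made into cDNA with the SMART-Seq v4 kit and into libraries with Nextera XT, per the labels' protocols; this chemistry does not mark the strand. The deposited table holds whole-number counts per gene, per the file headers, with 1 maternal and 1 paternal column for each morula and ExE library and 1 column for each FGO library. The submitters' processing notes name Trim Galore 0.6.4, STAR 2.7.3, RSEM 1.3.1 and Bowtie2 2.3.5 and the build mm10. Neither the tool that made the counts nor the rule for assigning reads to a parent is stated there, so close paralogs, overlapping genes and antisense partners are uncertain.

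Maternal and paternal counts were summed per library. Symbols were matched to GRCm38.p6 (23975 by symbol, 81 by synonym, 21 unmatched). The whole table was fitted with edgeR 4.0.16 (TMM, filterByExpr, robust quasi-likelihood F test) and p-values were adjusted over all 9063 genes tested, of which 8770 were autosomal; 14218 autosomal genes had too few counts. The common biological coefficient of variation was 0.178. SE is the log2 change divided by the root of F. Differences between stages are interaction terms. Alternatives were DESeq2 1.42.0, its size factors, no filter, no robust option, autosomal genes only, a replicate block, each library left out, a spread shared with ExE and a threshold of 0.1, the last chosen after seeing the data. The edgeR and DESeq2 fits were also run on simulated counts, with the same spread for every gene and independent libraries. Such data check the code and not the calls reported here.

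The rule for named genes took Pcgf1, Pcgf6, every called gene, the next 12 by p in each direction with a mean of 5 CPM and groups that do not overlap, up to 4 members of each of 39 lists, cell type markers and 5 genes per difference between stages. One gene next by p is not reported here, and some list members chosen by the rule are given only in the counts of their list. The members and lists were chosen with earlier results of these data known. No scan date, lane or other batch is given in the labels. Morulae of B6 and PWK crosses in both directions and the chromatin samples were not used here.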

Additional observations from a re-analysis of the deposited data

Results flagged for a closer look

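These results were picked out because the knockout effect in morulae differed from that at another stage by the interaction term in edgeR. Each value is the log2 change in morulae minus that at the other stage.

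Against ExE, all 5 were lower in matKO morulae while the ExE effect lay near or above 0. Dsc2 differed by −6.53 (adjusted p = 6.99e-05) and Sft2d2 by −3.04 (adjusted p = 0.00993; 44.2, 32.0, 30.3 and 45.0 CPM in matKO ExE, against 34.1 and 24.8 CPM in CTR ExE). Mpnd, a metalloprotease of the MPN family, differed by −5.83 (adjusted p = 0.00993). It had 1 read in both matKO morula libraries together and 78 in both CTR libraries, a ratio of 0.0158 (95% exact interval 3.96e-04 to 0.0909), and its morula effect did not pass (adjusted p = 0.0635). Cib2 differed by −2.86 (adjusted p = 0.00869; 155, 115, 111 and 101 CPM in matKO ExE, against 79.2 and 70.6 CPM in CTR ExE) and Slc9a3r1, a scaffold of apical membranes, by −2.67 (adjusted p = 0.00993; 9.23 and 17.1 CPM in matKO and 70.6 and 58.0 CPM in CTR morulae). Dsc2 passed with each morula library left out; the calls of the other 4 were lost without matKO replicate 1 (adjusted p = 0.0655) and without CTR replicate 1 (adjusted p = 0.0538).

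Against FGO, all 5 rose in KO oocytes, with a low level in CTR oocytes, and none was called in morulae. Mt1 differed by −6.82 (adjusted p = 2.08e-08). Plod2, a lysyl hydroxylase of collagen, differed by −6.48 (adjusted p = 2.57e-06; 160.0 and 124 CPM in matKO and 202 and 186 CPM in CTR morulae). Ddah1 differed by −6.10 (adjusted p = 1.10e-04; 170.0 and 284 CPM in matKO and 316 and 287 CPM in CTR morulae). Sgk3, a serine kinase, differed by −4.87 (adjusted p = 3.68e-05; 382 and 329 CPM in matKO and 259 and 334 CPM in CTR morulae) and Eif4ebp1, a repressor of translation, by −2.80 (adjusted p = 2.27e-04; 838 and 775 CPM in matKO and 739.8 and 746 CPM in CTR morulae). These 5 passed with each morula library left out.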

How the results depend on the processing

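The count of autosomal genes called in morulae, 11, moved with almost every setting, and 31 more genes lay just past the threshold. It was 46 (13 higher, 33 lower) with DESeq2's size factors, 462 with no filter on low counts, 191 by the DESeq2 Wald test, 97 with the spread shared with ExE and 269 at an adjusted p under 0.1. It was 6 (1 and 5) with no robust option and 6 with autosomal genes only; both lost Sft2d2, Oxct1, Cpne8, Bbx and D5Ertd605e. The shared spread kept 6 of the 11 and lost Oxct1, Cpne8, Bbx, Ugdh and D5Ertd605e. With each library left out in turn it was 5 to 497: 175 without matKO replicate 1, 497 without matKO replicate 2, 237 without CTR replicate 2 and 5 without CTR replicate 1, where the lone sample is assumed to vary like the other group. No called gene changed direction in any of these settings.

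The count of genes whose effect differed from ExE, 34, was 223 with no filter, 180 by DESeq2 and 1 to 44 with a morula library left out, 1 without matKO replicate 1 and 1 without CTR replicate 1. For FGO, 362, it was 741 with no filter, 639 by DESeq2 and 167 to 365 with a morula library left out. The other settings kept both counts within 1.5 times, apart from the replicate block. Same-numbered morula libraries share only a number: their deviations from the group means correlated at r = 0.174 over 8758 genes. With the replicate number as a block the counts were 291 in morulae (110 higher, 181 lower, all 11 among them), 524 for ExE and 628 for FGO.

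Of 38 list medians, 33 kept their sign with each library left out; those of the H3K27me3-imprinted, PRC1, pentose phosphate, ketone body and p53 lists did not. With 2 libraries a group and at most 1685510 reads, genes near the floor of 1.78 to 2.31 CPM and small changes could not be resolved.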

Other observations

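Some lists had too few tested members to describe a group. Of 20 autosomal genes of the postimplantation epiblast and mesoderm, 4 were tested, 12 were at 0 in all 4 libraries, and Dnmt3b had the smallest p. Otx2, a homeobox factor of the epiblast, had 1.54 and 13.4 CPM in matKO morulae, against 15.4 and 9.45 CPM in CTR morulae (log2 −0.69, SE 0.83, adjusted p = 0.686). Gsc, a homeobox gene of the gastrula organiser, had 27.7 and 17.8 CPM in matKO and 17.2 and 34.0 CPM in CTR (log2 −0.13, SE 0.46, adjusted p = 0.907). Of 24 granulosa and cumulus genes, 15 were at 0 in all 4 libraries and 2 were tested. Amhr2, a receptor of anti-Müllerian hormone, had 63.9 and 68.3 CPM in matKO and 93.1 and 85.0 CPM in CTR (log2 −0.39, SE 0.20, adjusted p = 0.313), and Hsd17b1, which makes oestradiol, had 109 and 57.9 CPM in matKO and 77.7 and 32.1 CPM in CTR (log2 0.64, SE 0.45, adjusted p = 0.459). By edgeR and DESeq2 0 of these passed, with 1 of the epiblast and 0 of the granulosa genes at an unadjusted p under 0.05.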
